A study of Oryza sativa Japonica Group with 8 samples.

Results

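Abscisic acid (ABA) is the plant hormone that closes stomata and holds back growth when water is short. Its supply in leaves is set largely at 2 enzymatic steps. The 9-cis-epoxycarotenoid dioxygenases (NCED) cut a carotenoid in the plastid to give xanthoxin, the committed and usually limiting step of synthesis, and the ABA 8′-hydroxylases (ABA8ox, cytochrome P450 enzymes of the CYP707A family) start the breakdown of the finished hormone. In rice and other plants NCED transcripts are known to accumulate under water deficit, and ABA8ox transcripts are known to respond to ABA itself. The genes described here are NCED3, NCED4, NCED5, ABA8ox1, ABA8ox2 and ABA8ox3, taken by their identifiers: 6 of the 55801 genes in the count table.

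Transcripts were measured by RNA sequencing in leaves of rice seedlings of the Japonica cultivar Nipponbare. CD seedlings grew from sown seeds on MS salts at 0.5 strength with carbon dots, which are nanoparticles of carbon, at 0.56 mg/ml. CK seedlings, the control, had the same medium without carbon dots. That is the protocol's account. The sample labels instead call both treatments hydroponic, and which medium was used was not settled here. Each group has 2 libraries, and nothing in the labels ties the replicates to different plants or cultures. The p-values below therefore speak only of the variation among these 4 libraries, and it may be technical. The labels name no transgene or mutation, and the seedlings' age is given as 2 weeks in one place and 3 weeks in another. The CD libraries held 74853055 and 49281927 counts and the CK libraries 80317398 and 60763633. A chi-square test on counts across genes gave 138 per degree of freedom for the CD pair and 81.5 for the CK pair. CD replicate 1 gave 224 and 141 with the CK libraries, and CD replicate 2 gave 116 and 125. These values also rise with sequencing depth, and the 224 is from the libraries with the most counts. Fold changes of the 6 genes are also given without CD replicate 1.

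The 6 genes lie on 6 chromosomes, in the coordinates of the authors' count table. NCED3 (LOC_Os03g44380) runs from 24959107 to 24961777 on the plus strand of chromosome 3, NCED4 (LOC_Os07g05940) from 2870686 to 2872832 on the plus strand of chromosome 7, and NCED5 (LOC_Os12g42280) from 26268230 to 26270794 on the plus strand of chromosome 12. Each of these NCED genes is annotated as 1 exon without an intron. ABA8ox1 (LOC_Os02g47470) runs from 28995717 to 28998581 on the plus strand of chromosome 2, ABA8ox2 (LOC_Os08g36860) from 23288613 to 23294164 on the minus strand of chromosome 8, and ABA8ox3 (LOC_Os09g28390) from 17252028 to 17255514 on the minus strand of chromosome 9. The ABA8ox genes are split, with 4, 9 and 8 exonic blocks once overlapping exons of the annotated transcripts are merged. No other annotated gene overlaps any of the 6, and the nearest neighbour of any of them is 1804 bases away (from ABA8ox2), so reads of an overlapping gene do not enter their counts.

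Transcripts of all 6 genes were detected in every library, and ABA8ox1 was by far the most abundant. In TPM, the deposited values that are scaled for gene length and library size, ABA8ox1 stood at 94.98 and 47.2 TPM in the CD libraries, against 32.1 and 66.0 TPM in the CK libraries. Of the 55801 genes in the count table, 31460 and 30183 had a count in the CD libraries and 30999 and 30627 in the CK libraries. ABA8ox1 ranked above 90.9% to 96.1% of all genes, with or without a count, in the CD libraries and above 87.5% to 94.2% in the CK libraries. The second gene of the set was 8.38-fold and 8.86-fold below it in the CD libraries and 6.59-fold and 9.44-fold below it in the CK libraries. ABA8ox1 alone made up 83.7% and 85.8% of the summed ABA8ox TPM in the CD libraries and 83.4% and 85.4% in the CK libraries.

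The other 5 genes lay well below ABA8ox1. Their order changed between libraries, except that NCED3 was above NCED5 and ABA8ox3 in every library. NCED3 stood at 11.3 and 3.20 TPM in the CD libraries, against 4.87 and 6.99 TPM in the CK libraries. It was the second gene of the set in every library except CD replicate 2, where NCED4 was second at 5.33 TPM. ABA8ox2 had 8.97 and 5.26 TPM with carbon dots and 3.44 and 6.11 TPM in the control. ABA8ox3 had 9.49 and 2.56 TPM with carbon dots and 2.92 and 5.17 TPM in the control. NCED4 was the lowest gene of the set in both libraries numbered 1, at 7.40 TPM in CD and 2.66 TPM in CK, and NCED5 in both libraries numbered 2, at 1.06 TPM in CD and 3.06 TPM in CK. Group means of these 5 genes ran from 5.14 to 7.26 TPM in the CD group and from 3.33 to 5.93 TPM in the CK group. Standard deviations within the CD group reached 5.76 TPM. Within each library, NCED3 was above NCED5, by 1.23-fold and 3.01-fold in the CD libraries and 1.31-fold and 2.28-fold in the CK libraries. Differences in level between these genes were not tested.

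**Figure D1:**
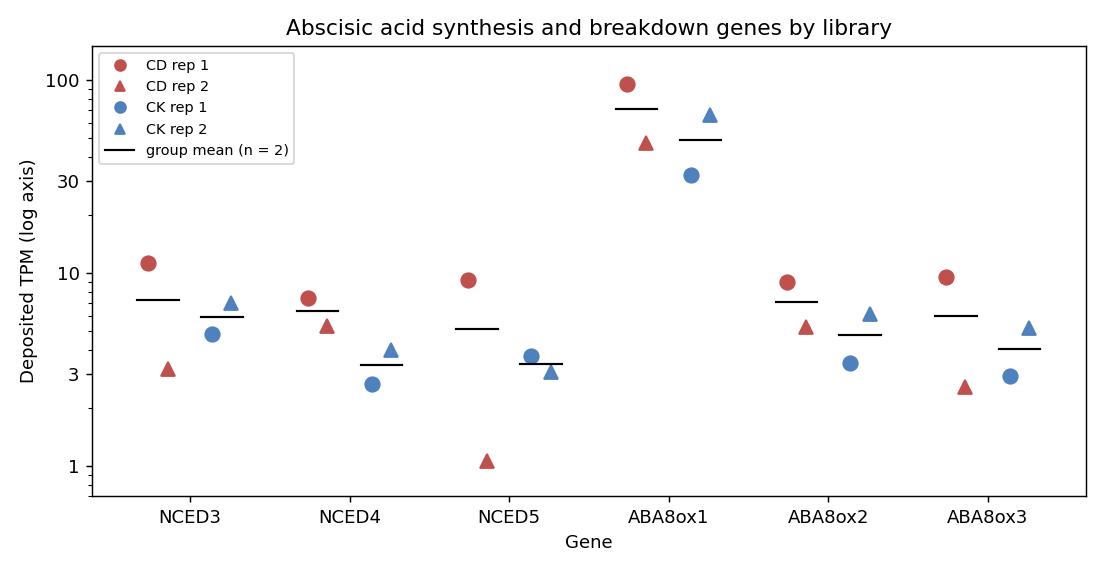
Deposited TPM (log axis) of the 6 genes, with 1 point per library (CD in red on the left of each pair, CK in blue) and a black line at each group mean (n = 2). CD replicate 1 is the highest library for all 6 genes, and only for NCED4 do both CD libraries lie above both CK libraries.

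The first comparison asked whether the NCED genes, the entry into ABA synthesis, differed between seedlings with and without carbon dots. NCED4 was the only one of the 3 with higher values in both CD libraries, by 1.76-fold, and it did not pass the test after adjustment. NCED3 and NCED5 were higher than the control in one CD library and lower in the other, and their mean differences were small beside that spread. The synthesis list held another 2 genes entered as NCED genes, with no matching symbol in the reference gene table, and both had a negative estimate (given with the summed levels). In this paragraph and the next, levels are CPM, counts scaled by TMM library sizes, and fold changes are CD relative to CK from edgeR's quasi-likelihood test, adjusted by Benjamini-Hochberg over 26271 genes. NCED4 was at 8.28 and 6.11 CPM in the CD libraries and at 3.27 and 4.93 CPM in the CK libraries. Both CD libraries thus lay above both CK libraries. Its log2 fold change was 0.81 ± 0.31 (SE; 95% interval 0.02 to 1.61), with an unadjusted p of 0.0464 and an adjusted p of 0.564 by edgeR (range over the alternatives 0.271 to 1.00). The estimate was 0.58 without CD replicate 1 and 0.55 without CK replicate 1.

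NCED3, the member of the family best known for its response to water deficit in rice, was at 15.8 and 4.56 CPM in the CD libraries, against 7.45 and 10.7 CPM in the CK libraries. Both CK libraries lay between the CD libraries. The log2 fold change was 0.17 ± 0.59 (SE; 95% interval -1.35 to 1.69), with an edgeR adjusted p of 0.977. With CD replicate 1 left out it was -0.99, and with CD replicate 2 left out 0.80. With CK replicate 1 left out it was -0.065, and with CK replicate 2 left out 0.46. NCED5 had the widest spread, at 12.3 and 1.45 CPM in the CD libraries and 5.47 and 4.50 CPM in the CK libraries. Again the CD libraries lay on either side of both CK libraries. Its log2 fold change of 0.47 ± 0.91 (SE; 95% interval -1.85 to 2.80; edgeR adjusted p = 0.950) became -1.78 without CD replicate 1. It was 1.30 without the other CD library, -0.047 by limma-voom and -0.081 on the log2(TPM + 0.1) scale. The gap between the CD libraries was far wider than counting error: CD replicate 2 held 73 NCED5 reads (exact Poisson 95% interval 57.2 to 91.8), and CD replicate 1 held 971 (911 to 1034), intervals that cover counting error only.

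The second comparison asked the same of the ABA8ox genes, the entry into breakdown. All 3 had a positive log2 fold change between 0.41 and 0.45, none passed the test, and for each of them the CD and CK libraries overlapped. ABA8ox1, known in rice for its rise when plants are submerged, was at 125 and 63.6 CPM in the CD libraries, against 46.4 and 95.5 CPM in the CK libraries. The groups alternate: CD replicate 1, CK replicate 2, CD replicate 2 and CK replicate 1 from high to low. The log2 fold change was 0.41 ± 0.46 (SE; 95% interval -0.78 to 1.599; edgeR adjusted p = 0.903). With CD replicate 1 left out it was -0.16, and with CD replicate 2 left out 0.81. With CK replicate 1 left out it was -0.014, and with CK replicate 2 left out 1.03.

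ABA8ox2 was at 10.3 and 6.17 CPM in the CD libraries and at 4.34 and 7.71 CPM in the CK libraries, in the same order of libraries as ABA8ox1. Its log2 fold change was 0.45 ± 0.40 (SE; 95% interval -0.56 to 1.47; edgeR adjusted p = 0.853), and 0.039 without CD replicate 1 or 0.10 without CK replicate 1. ABA8ox3 was at 9.57 and 2.65 CPM in the CD libraries, against 3.24 and 5.74 CPM in the CK libraries. CD replicate 1 was the highest library and CD replicate 2 the lowest, with the control in between. Its log2 fold change was 0.45 ± 0.65 (SE; 95% interval -1.22 to 2.12; edgeR adjusted p = 0.929), and -0.76 without CD replicate 1 or 0.10 without CK replicate 1.

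Across the set, 0 of 6 genes were called at an adjusted p of 0.05 by edgeR, as were 0.00% of all genes tested, and DESeq2, which called 1.91% of all genes, called 0 of the 6. At an unadjusted p under 0.05, edgeR had 1 of 6, NCED4, beside 8.70% of all genes. In 1 of 6, NCED4, the CD libraries did not overlap the CK libraries, beside 38.4% of all genes in either direction and 17.8% in that of NCED4. All 6 genes had a log2 fold change above 0, beside 51.0% of all genes, with a median of 0.45 against 0.0068 over all genes tested. Without CD replicate 1, 4 of the 6 were below 0. The plain difference of mean log2 CPM, CD minus CK over the 4 libraries, was -0.075 for NCED3 and -0.23 for NCED5, and positive for the other genes of the set. The 95% intervals of the fold changes reached from 0.277-fold to 6.96-fold for NCED5 and from 1.01-fold to 3.05-fold for NCED4, so changes of 2-fold in either direction lie inside the intervals of NCED3, NCED5 and ABA8ox3.

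**Figure D2:**
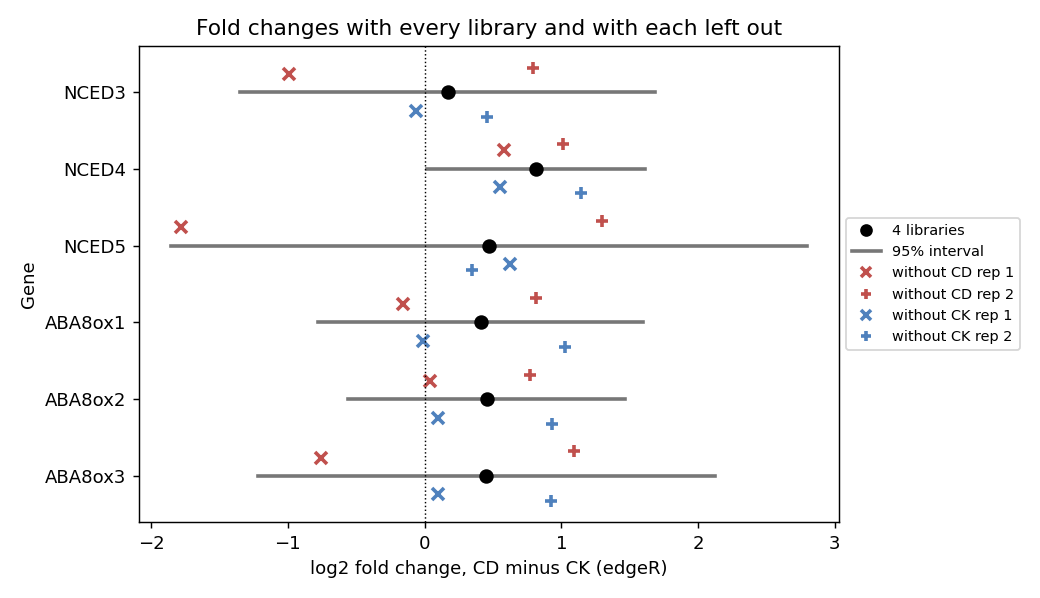
Log2 fold change of each gene, CD minus CK (edgeR), as a black point with its 95% interval (grey), with crosses for the fit without each library. Leaving out CD replicate 1 moves 4 of the 6 estimates below 0, down to -1.78 for NCED5, while NCED4 stays between 0.55 and 1.14 in these fits.

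The 6 genes shared their highest library and differed in the order of the others. CD replicate 1 was the highest of the 4 libraries for 6 of 6 genes, beside 29.3% of all genes tested. For 5 of the 6, all but NCED5, CK replicate 2 was also above CK replicate 1, and this combination held for 16.3% of all genes. The lowest library was CD replicate 2 for NCED3, NCED5 and ABA8ox3, and CK replicate 1 for NCED4, ABA8ox1 and ABA8ox2.

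Spread within a group was large for several of them. NCED5 was 8.47-fold higher in CD replicate 1 than in CD replicate 2 (CPM), and a wider gap between the CD replicates was found for 0.815% of all genes. ABA8ox3 and NCED3 differed 3.62-fold and 3.46-fold between the CD replicates. A gap of over 2-fold separated the CD replicates for 3 of 6 genes, beside 14.1% of all genes, and the CK replicates for 1 of 6, ABA8ox1, beside 8.43% of all genes. ABA8ox1 differed 1.96-fold between the CD replicates and 2.06-fold between the CK replicates, against a fitted fold of 1.33 between the groups. NCED4 was the steadiest of the CD group, with 1.35-fold between its CD replicates and 1.51-fold between its CK replicates.

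Some of the 6 profiles ran nearly parallel. ABA8ox1 and ABA8ox2 kept an almost constant ratio of TPM, 10.6 and 8.98 in the CD libraries and 9.32 and 10.8 in the CK libraries, although each gene on its own varied more than 2-fold over the 4 libraries. As a measure of likeness, log2 CPM was centred on each gene's mean, and the root mean square difference between the profiles of 2 genes was taken over the 4 libraries. ABA8ox1 and ABA8ox2 were each other's nearest gene among the set and the listed pathway genes, at 0.115, against a median of 0.595 between ABA8ox1 and all genes tested. NCED3 and ABA8ox3, one from each side of the pathway, were likewise each other's nearest, at 0.184, with NCED3 at 1.19 and 1.25 times the TPM of ABA8ox3 in the CD libraries and 1.66 and 1.35 times in the CK libraries. NCED4 was nearest to ABA8ox2 at 0.225. The nearest gene of the set to NCED5 was NCED3 at 0.542, but LOC_Os10g04860, a listed synthesis gene, was nearer at 0.446. With 4 libraries such likeness is loose. Outside the set, 32 genes (0.12% of all genes tested) were nearer to ABA8ox1 than ABA8ox2 was, and 77 (0.29%) were nearer to NCED3 than ABA8ox3 was. For NCED4, 524 genes (1.99%) were nearer than ABA8ox2, and for NCED5, 296 (1.13%) were nearer than NCED3.

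Levels were also summed over the genes of each step. The 3 NCED genes added up to 27.9 and 9.59 TPM in the CD libraries and to 11.2 and 14.1 TPM in the CK libraries. The 3 ABA8ox genes added up to 113 and 55.0 TPM in the CD libraries, against 38.4 and 77.3 TPM in the CK libraries. Both sums were highest in CD replicate 1 and next in CK replicate 2, the lowest library was CD replicate 2 for the NCED sum and CK replicate 1 for the ABA8ox sum, and in neither did the groups separate. The ratio of the ABA8ox sum to the NCED sum was 4.06 and 5.74 in the CD libraries and 3.42 and 5.50 in the CK libraries, or 4.90 ± 1.19 with carbon dots and 4.46 ± 1.47 in the control (SD, n = 2 each), a difference smaller than the spread in either group. The make-up of the NCED sum did vary: NCED5 gave 33.0% and 11.1% of it in the CD libraries and 33.1% and 21.8% in the CK libraries, and NCED4 gave 26.5% and 55.6% in the CD libraries and 23.6% and 28.5% in the CK libraries.

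These sums depend on which genes are counted. The other 2 genes listed as NCED genes, singled out after their values were seen, are LOC_Os02g47510 and LOC_Os12g24800. LOC_Os02g47510 was at 8.90 and 5.53 TPM in the CD libraries, against 20.7 and 8.46 TPM in the CK libraries, with a log2 fold change of -1.14 ± 0.48 (SE; edgeR adjusted p = 0.590; -1.50 without CD replicate 1 and -0.35 without CK replicate 1). LOC_Os12g24800 was at 3.90 and 3.26 TPM in the CD libraries and 2.47 and 8.27 TPM in the CK libraries, with a log2 fold change of -0.70 ± 0.58 (SE; edgeR adjusted p = 0.842; -1.32 without CK replicate 1 and 0.42 without CK replicate 2). Neither gene passed the test. With both included, the 5 genes added up to 40.7 and 18.4 TPM in the CD libraries and 34.4 and 30.8 TPM in the CK libraries, or 29.6 ± 15.8 with carbon dots and 32.6 ± 2.58 in the control (SD, n = 2 each). The mean of the 5 genes was thus lower in CD than in CK, where that of the 3 was higher, and either difference was smaller than the spread of the CD libraries. The ratio of the ABA8ox sum to this wider NCED sum was 2.78 and 2.99 in the CD libraries, above 1.12 and 2.51 in the CK libraries, and it was not tested.

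**Figure D3:**
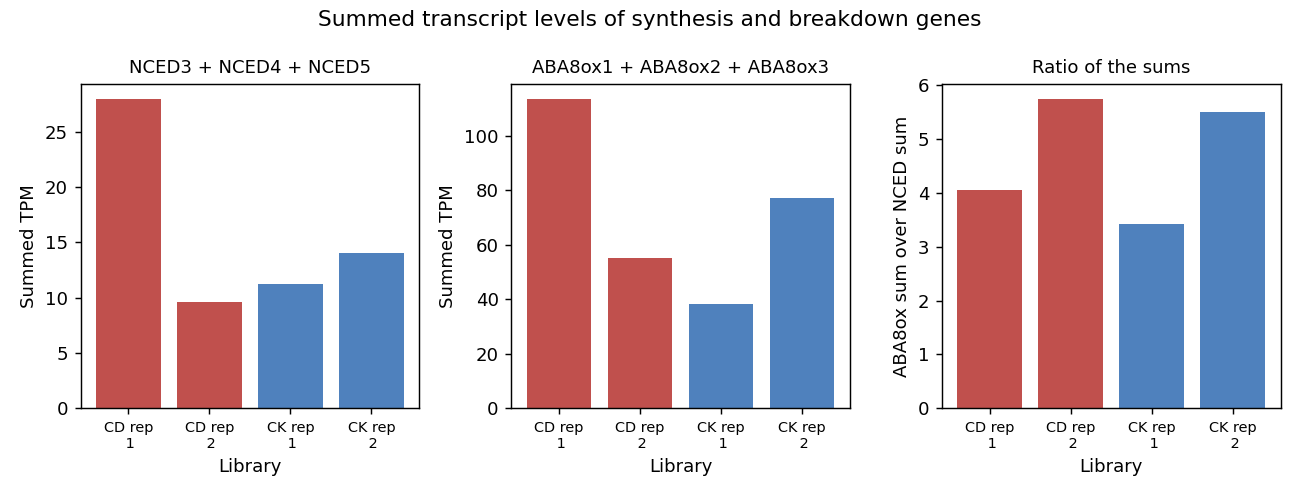
Summed TPM of the 3 NCED genes (left) and the 3 ABA8ox genes (middle), and the ratio of the ABA8ox sum to the NCED sum (right), for each library, CD in red and CK in blue. CD replicate 1 has the highest sum in both, at 27.9 and 113 TPM, while the ratio stays between 3.42 and 5.74 and the groups overlap.

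Other genes of the pathway were described from lists of 30 genes, of which 10 could be named because a reference gene table pairs their symbol with the same place in the genome. The list of other synthesis genes also held LOC_Os02g47510 and LOC_Os12g24800, the genes listed as NCED genes above. Their log2 fold changes of -1.14 and -0.70 were its lowest. Among the 12 tested genes of this list (13 listed), 0 were called by edgeR, 4 had a log2 fold change above 0 and 8 below, and the median was -0.079. It was -0.28 without CD replicate 1, and it turned to 0.031 with total count scaling and to 0.037 without CD replicate 2, each with 7 of the 12 above 0. The one that could be named is ABA1, the zeaxanthin epoxidase that makes the xanthophyll precursors of NCED substrates. ABA1 was at 29.1 and 28.2 CPM in the CD libraries, below 42.0 and 33.3 CPM in the CK libraries, with a log2 fold change of -0.39 ± 0.17 (SE; edgeR adjusted p = 0.609; -0.41 without CD replicate 1 and -0.21 without CK replicate 1). Its CD replicates lay close together, unlike those of NCED3 and NCED5.

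Downstream of the hormone, ABA receptors release SnRK2 protein kinases (named SAPK in rice) from inhibition, and these switch on genes of dehydration tolerance. For 6 tested receptor genes (7 listed, none named here), edgeR called 0. All 6 estimates were negative, and their median was -0.25, or -0.28 without CD replicate 1 and -0.099 without CK replicate 2. With total count scaling, with either TPM scale and without CK replicate 1, 1 of the 6 was above 0. For the 5 kinase genes edgeR called 0, 4 were above 0, and the median was 0.034, or 0.16 without CD replicate 1. SAPK2 was at 89.0 and 82.4 CPM in the CD libraries, above 59.6 and 67.2 CPM in the CK libraries, a log2 fold change of 0.44 ± 0.15 (SE; unadjusted p = 0.0338, edgeR adjusted p = 0.528; 0.38 without CD replicate 1). SAPK1, SAPK8 and SAPK10 had log2 fold changes of 0.032 ± 0.18, 0.034 ± 0.17 and -0.34 ± 0.22 (SE). SAPK10 separated the groups the other way, at 8.47 and 11.4 CPM in the CD libraries, below 12.4 and 12.8 CPM in the CK libraries. Leaving out CD replicate 1 gave -0.17 for SAPK1, 0.16 for SAPK8 and -0.14 for SAPK10. Leaving out CD replicate 2 gave 0.21 for SAPK1, -0.11 for SAPK8 and -0.57 for SAPK10.

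The tested ABA-responsive genes, RAB16A, RAB16B and RAB16C of the RAB16 dehydrin cluster and LEA3, whose proteins protect cells that dry out, were also highest in CD replicate 1, with wider gaps between the CD libraries for RAB16A, RAB16B and LEA3. RAB16A reached 56.5 CPM in CD replicate 1 but 0.597 CPM in the other CD library, and 0.309 and 1.80 CPM in the CK libraries. RAB16B was at 3.17 and 0.139 CPM in the CD libraries and 0.116 and 0.325 CPM in the CK libraries. For LEA3, CD replicate 1 held 243 reads and CD replicate 2 held 0, against 18 reads in CK replicate 1 and 24 in CK replicate 2. CD replicate 1 was the highest library for all 4 tested genes of this list (the fifth, RAB16D, had at most 6 counts in a library and was not tested), while CD replicate 2 was below at least one control library for all of these except RAB16C, which was at 1.19 and 0.995 CPM in the CD libraries and 0.643 and 0.411 CPM in the CK libraries. edgeR called 0 of the 4. Their median log2 fold change was 2.62, and -0.71 without CD replicate 1. These dehydrin and LEA values had been seen in earlier work on the same libraries and are no independent support for the values of the ABA genes.

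**Figure D4:**
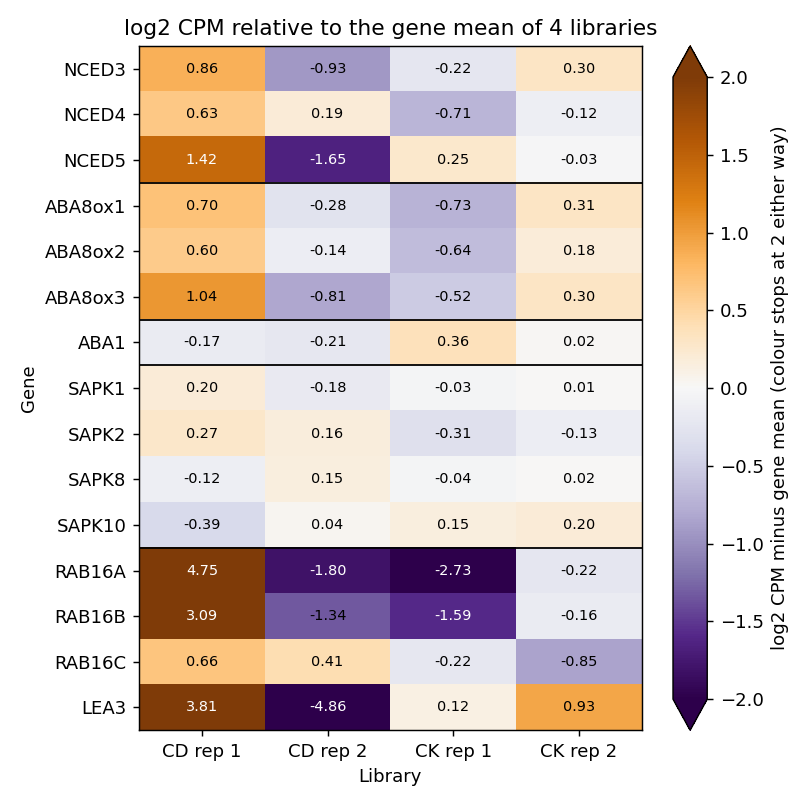
Log2 CPM in each library minus the mean of the 4 libraries, for the 6 genes (top 2 blocks) and the named pathway genes (ABA1, SAPK kinases, and RAB16 and LEA3 genes), with values printed in the cells and colours that stop at 2 either way. CD replicate 1 is positive for all 6 genes and for RAB16A, RAB16B, RAB16C and LEA3, and CD replicate 2 is negative for all of these except NCED4 and RAB16C.

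Marker genes were read beside these values, since leaf tissue holds several cell types and, in bulk RNA, fewer cells of a type and less RNA per cell cannot be told apart. The 5 mesophyll markers (CAB1R, CAB2R and 3 genes listed as Rubisco small subunits) added up to 8528 and 7779 TPM in the CD libraries and 17618 and 25290 TPM in the CK libraries. Each of the 3 Rubisco genes was lower in both CD libraries than in both CK libraries, but CAB1R and CAB2R did not separate the groups. CAB1R was at 95.5 and 439 TPM in the CD libraries, against 965 and 322 TPM in the CK libraries. CAB2R was at 349 and 1259 TPM in the CD libraries, against 2470 and 860 TPM in the CK libraries. Of 3 root markers, the silicon exporter gene LSI2 had 0 counts in every library. The silicon channel gene LSI1 was detected, at 21.9 and 21.2 TPM in the CD libraries and 23.7 and 24.3 TPM in the CK libraries, as was the manganese transporter gene NRAMP5, at 8.07 and 12.8 TPM in the CD libraries and 11.8 and 18.4 TPM in the CK libraries. All 3 together reached 30.01 and 34.0 TPM in the CD libraries and 35.5 and 42.7 TPM in the CK libraries. The 3 secondary wall cellulose synthase genes of vascular tissue, CESA4, CESA7 and CESA9, added up to 344 and 695 TPM in the CD libraries and 550 and 361 TPM in the CK libraries. This sum did not separate the groups. Of the meristem and division markers, no count of the homeobox gene OSH1 was found in CD (0 and 0), against 117 and 42 counts in CK, and the sum with the replication clamp gene PCNA was 35.7 and 31.8 TPM in the CD libraries and 29.9 and 31.1 TPM in the CK libraries. Of the tested markers, edgeR called 0, while DESeq2 called the 3 Rubisco genes and OSH1 as lower in CD and no other marker. The part of these tissue markers in the values of the 6 genes was not tested.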

How the data were processed

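The authors deposited unnormalized gene counts for 55801 genes, laid out as featureCounts writes them, per the file headers. The deposited TPM values equal counts divided by gene length and scaled per library, within a relative 1e-05. The submitters' processing notes name fastp 0.21.0, HISAT2 2.0.5, SAMtools 1.9 and featureCounts 1.6.4, without roles. Not given in the sources used here: the genome build, the strand setting and the treatment of reads shared between related gene copies. The 4 bisulfite samples were not analysed here.

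The main test, CD against CK, was that of edgeR 4.0.16 in R 4.3.3, with TMM, filterByExpr (26271 genes kept, all 6 members among them) and the quasi-likelihood F test, Benjamini-Hochberg at 0.05. Standard errors were the absolute fold change over the root of the F statistic. Alternatives were RLE and total count scaling, other filters, DESeq2 1.42.0, limma 3.58.1 (voom, and log2 TPM with pseudocounts of 1 and 0.1), the replicate number as a block, and fits that left out each library in turn or the 20 genes with most counts. The fit was tested on counts simulated with the same spread for every gene. That is unlike these libraries, so the power of the test on them was not measured. The members and gene lists were chosen with earlier results of these data known. Named genes are the 6 members and the listed genes whose symbol, chromosome, span (within 15%) and neighbours (at least 50% within 300 bases) matched the reference gene table (assembly ASM3414082v1, used for names only). RAB16A was matched under its other name RAB21, and NCED4 and NCED5 had no record there and are named by the rule that selected them.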

Additional observations from a re-analysis of the deposited data

How the results depend on the processing

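With 2 libraries a group, the library left out decided the direction of most of these genes. Without one library, the log2 fold change ranged from -0.99 to 0.80 for NCED3, -1.78 to 1.30 for NCED5, -0.16 to 1.03 for ABA8ox1, -0.76 to 1.09 for ABA8ox3, 0.55 to 1.14 for NCED4 and 0.039 to 0.93 for ABA8ox2. The median of the 3 NCED genes ranged from -0.99 to 1.01 and that of the 3 ABA8ox genes from -0.16 to 0.93. The groups share replicate numbers, but nothing in the labels says that a number pairs libraries, and the deviations of same-numbered libraries from their group means correlated at -0.115 across genes. With a replicate block NCED3 was at -0.062, NCED5 at -0.18 and the NCED median at -0.062. With a crossed replicate block, chosen after seeing the data, they were at -0.063, -0.17 and -0.063. Either block called 0 genes. NCED5 was at -0.047 by limma-voom and -0.081 on the log2(TPM + 0.1) scale. The causes were not tested. NCED4 and ABA8ox2 kept a positive sign in all 15 alternative fits. The number of genes called over all genes was 0, 29 with no filter and 502 with DESeq2, and 0 of the 6 genes and 0 of the listed pathway genes were called in any fit. Scaling by total counts shifted all genes by a median of 0.10 (log2), and with it 1371 genes were higher and 992 lower at an unadjusted p of 0.05, where TMM gave 876 and 1410. At 73 to 9853 counts per library the 6 genes have a counting error that is small beside the spread between libraries.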
